A study of Mus musculus with 16 samples.

Results

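Livers of wild-type (WT) mice that had drunk thioacetamide for 8 weeks and were then kept off it for 1 week, without choline, were compared with livers taken at the end of the same 8 weeks of thioacetamide (TAA). Each group had 2 libraries, so the comparison used 4 of the 16 RNA-seq libraries in the series, and it covered every gene that passed a filter on low counts, 17292 of the 55401 in the count table. Thioacetamide was given in drinking water at 300 mg/L, in the recovery mice and in the mice sampled at the end of treatment alike. The other 12 libraries came from WT livers after 1, 2 or 4 weeks of recovery with choline chloride at 3.5 g/L in the water, after 2 or 4 weeks of recovery without it, and from untreated control livers, with 2 libraries in each of these 6 groups. They entered the fit to steady its estimate of spread, and the control and the later recovery groups without choline are used again at the end. The labels give no sex, strain or age, and leave unsaid whether a group's 2 libraries are 2 animals, so the p-values measure the spread between libraries, which may be technical. The long noncoding RNA Xist, abundant in female cells, had 8 and 7 counts in the recovery libraries and 2 and 8 counts in the thioacetamide libraries.

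Thioacetamide is a sulphur compound that harms the liver only after hepatocytes oxidise it, mainly in the zone around the central vein where the cytochrome CYP2E1 is made. The reactive products bind proteins and lipids, kill pericentral cells, call up oxidative stress and DNA damage responses, and with repeated dosing lead to regeneration and scarring. Once the compound is withdrawn, surviving hepatocytes can restore their specialised functions while the scar is slowly remodelled.

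The 4 libraries held 26321410 to 33645258 expected counts, within the 23069490 to 33645258 of all 16, and 21917 to 22937 genes had at least 1 count. Liver identity was plain in all of them: albumin (Alb) stood at 47500 and 46200 CPM (counts scaled to a common library size) in the recovery libraries and at 56100 and 46600 CPM in the thioacetamide libraries, while the pancreatic, fat and muscle genes Ctrb1, Adipoq and Ckm had 0 counts in all 4. These belong to a list of 12 genes of other tissues, not all of which are shown. Among its other genes, Prss2, Pnlip, Acta1 and Myh1 had at most 6 counts in any of the 4. Others were detected: the elastase gene Cela1 had 165 and 136 counts in recovery and 235 and 184 counts under thioacetamide. Upk3b had 2.21 and 2.32 CPM in recovery and 4.03 and 1.45 CPM under thioacetamide. The TAA library numbered 1 stood apart in the nuclear RNA Malat1, with 1020 CPM against 5990 CPM in TAA library 2, and the recovery libraries had 6800 and 5570 CPM. Control library 1 was lower still, at 146 CPM, against 5230 CPM in control library 2. Calls that were lost and list counts that moved without these low libraries are gathered after the gene groups, and the part of nuclear RNA content in any result was not tested.

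At an adjusted p under 0.05 in edgeR's quasi-likelihood test, 648 genes (3.75% of those tested) changed between the first recovery week and the end of thioacetamide. Of these, 340 (1.97%) were higher in recovery and 308 (1.78%) were lower, and 195 of the rises and 146 of the falls were at least 2-fold. All 648 had groups that did not overlap. Over all tested genes, both recovery libraries lay above both thioacetamide libraries in 27.6% of genes and below both in 27.6%, and the median log2 change was 0.008. The 2 recovery libraries were not equally far from the thioacetamide mean. Library 1 was farther than library 2 in 275 of the 340 genes that rose (80.9%) and in 225 of the 308 that fell (73.1%). Of all tested genes that lay above and below 0, the shares were 56.7% and 57.6%. The changed genes were picked by this same comparison, and the cause of the difference was not tested. Without recovery library 1 the count of changed genes was 1, and it was 235 without recovery library 2, 92 without TAA library 1 and 379 without TAA library 2. The count was much higher without control library 1 or 2, and lower without any single library of the other 10. These libraries enter through the spread and the scaling. The median log2 change of all tested genes was -0.016 without control library 1 and 0.008 without control library 2. The 1 gene that still passed without recovery library 1 was Slc22a30.

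**Figure D1:**
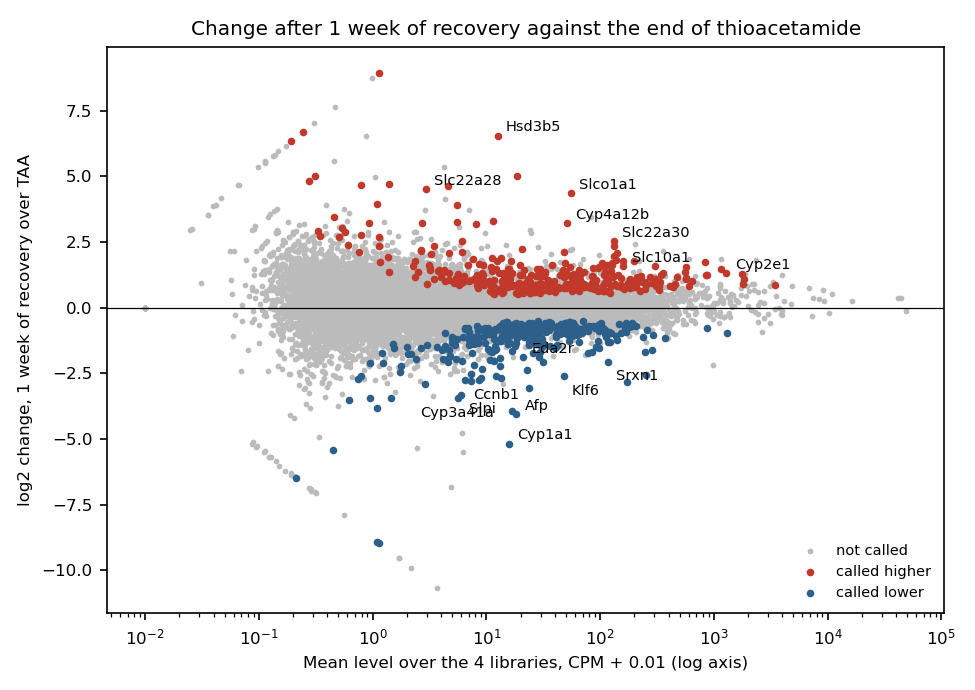
Log2 change of each of the 17292 tested genes (vertical axis, recovery at 1 week minus end of thioacetamide) against its mean level in the 4 libraries (horizontal log axis, CPM plus 0.01). The 340 genes that rose are red, the 308 that fell are blue and all others are grey; named genes are labelled, Hsd3b5 among the largest rises and Cyp1a1 among the largest falls, and slanted streaks at the left are genes with 0 counts in some libraries.

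Stress responses of the injured liver were lower after 1 week without thioacetamide. The clearest group was the targets of p53, the transcription factor that answers DNA damage by halting division or triggering death: 12 of 24 tested members fell and none rose, and their median log2 change was -0.80, beside 0.008 for all genes. In 19 of the 24 both recovery libraries lay below both thioacetamide libraries. Cyclin G1 (Ccng1, ENSMUSG00000020326, chr11:40748552-40755311 in GRCm38) had 48.4 and 47.8 CPM in recovery and 135 and 136 CPM under thioacetamide. Eda2r, a death receptor of the TNF family (ENSMUSG00000034457, chrX:97333840-97377216), had 8.61 and 9.32 CPM in recovery and 37.1 and 28.8 CPM under thioacetamide. The cell-cycle inhibitor p21 (Cdkn1a, ENSMUSG00000023067, chr17:29090979-29099701) had 45.7 and 34.4 CPM in recovery and 124 and 133 CPM under thioacetamide. In all 3 genes the libraries of a group were closer to each other than to those of the other group, and the groups did not overlap. The log2 changes were -1.49 ± 0.18 for Ccng1 (SE, edgeR adjusted p = 0.00319), -1.88 ± 0.25 for Eda2r (adjusted p = 0.00475) and -1.69 ± 0.28 for Cdkn1a (adjusted p = 0.011).

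Tnfrsf10b, the mouse receptor for the death ligand TRAIL, moved further than these p53 targets, with 1.97 and 2.46 CPM in recovery and 15.4 and 14.2 CPM under thioacetamide, a log2 change of -2.74 ± 0.50 (SE, edgeR adjusted p = 0.0155). Phlda3, which restrains the kinase AKT, had 3.98 and 5.37 CPM in recovery and 17.2 and 26.2 CPM under thioacetamide (log2 change -2.21, adjusted p = 0.00743). Sesn2, a sestrin that lowers mTORC1 activity, was near its control level, and Aen, a nuclease linked to apoptosis, was still above it. Sesn2 had 7.76 and 8.12 CPM in recovery, 14.6 and 23.4 CPM under thioacetamide and 9.05 and 8.11 CPM in control livers. Aen had 23.3 and 22.8 CPM in recovery, 41.3 and 45.6 CPM under thioacetamide and 14.1 and 12.1 CPM in control livers. Against control, 7 of the 24 members were still higher at 1 week and none was lower, beside 1.9% and 2.35% of all genes; that comparison uses the same recovery libraries. Without the pair of libraries low in Malat1, 14 members of the list were lower than under thioacetamide.

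Cyp1a1 (ENSMUSG00000032315, chr9:57687928-57703821, plus strand), the classical target of the aryl hydrocarbon receptor (AhR), had 0.749 and 0.938 CPM in recovery and 23.0 and 38.3 CPM under thioacetamide. The recovery libraries were at the control level, which was 1.19 and 0.718 CPM. The fall was 36.1-fold, a log2 change of -5.17 ± 0.49 (SE, edgeR adjusted p = 0.00212). Its neighbour in function, Cyp1a2, a hepatocyte cytochrome that AhR also induces but that is normally made at a high level around the central vein, went the opposite way: 572 and 476 CPM in recovery, 300 and 292 CPM under thioacetamide, and a log2 change of 0.82 ± 0.16 (adjusted p = 0.0205). Of the 7 tested genes of the AhR list, 2 fell and 1 rose. The other fall was Nfe2l2, the gene of NRF2 itself, with 113 and 119 CPM in recovery and 200 and 159 CPM under thioacetamide (log2 change -0.64, adjusted p = 0.0347).

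NRF2 is the transcription factor that raises enzymes of glutathione, thioredoxin and NADPH supply when cells meet electrophiles. Of its 29 tested targets 6 fell, Srxn1, G6pdx, Gsta1, Pgd, Txnrd1 and Hmox1, and Aox1 rose, with a median log2 change of -0.64, and in 21 both recovery libraries lay below both thioacetamide libraries. The median was -0.38 without recovery library 1 and -0.98 without recovery library 2. Srxn1, which repairs over-oxidised peroxiredoxins (ENSMUSG00000032802, chr2:152105524-152111376), had 38.3 and 52.3 CPM in recovery, 208 and 169 CPM under thioacetamide and 49.2 and 33.5 CPM in control livers. G6pdx, the first enzyme of the NADPH-making pentose phosphate pathway, had 5.79 and 8.88 CPM in recovery, 40.6 and 34.9 CPM under thioacetamide and 6.35 and 7.94 CPM in control livers. In both genes the recovery libraries were within or near the control range, and the log2 changes from thioacetamide were -2.06 ± 0.22 for Srxn1 (SE, edgeR adjusted p = 0.0031) and -2.36 ± 0.33 for G6pdx (adjusted p = 0.00702). Gsta1, a glutathione transferase whose reads may be shared with its paralogs, had 32.7 and 114 CPM in recovery, apart from each other but both below the 465 and 400 CPM under thioacetamide (log2 change -2.56 ± 0.47, adjusted p = 0.0159). Pgd, the next NADPH-making enzyme of that pathway, had 60.0 and 72.9 CPM in recovery against 175 and 157 CPM, and thioredoxin reductase 1 (Txnrd1) had 174 and 204 CPM against 428 and 356 CPM; both fell, by 1.32 and 1.05 on the log2 scale. Nqo1, the quinone reductase often used to read NRF2 activity, had 7.76 and 19.7 CPM in recovery and 33.6 and 20.7 CPM under thioacetamide and did not pass (log2 change -0.98, adjusted p = 0.159).

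Short stretches upstream of Cyp1a1, of Txnrd1 and of a mitotic gene described further on are shown because each gene fell and belongs to a group with a known recognition motif. They are the 100 bases before the RefSeq start site in GRCm38.p6, written 5′ to 3′ on the strand of the gene, with the motif match in capitals: the AhR core GCGTG in Cyp1a1 (chr9:57697513-57697612, plus strand), the antioxidant response element core TGACNNNGC in Txnrd1 (chr10:82859106-82859205, plus strand, matched on the opposite strand), and the cell-cycle homology region TTTGAA in Cdc20 (chr4:118437344-118437443, minus strand).
Cyp1a1: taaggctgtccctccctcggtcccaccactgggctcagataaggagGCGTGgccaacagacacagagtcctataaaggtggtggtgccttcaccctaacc
Txnrd1: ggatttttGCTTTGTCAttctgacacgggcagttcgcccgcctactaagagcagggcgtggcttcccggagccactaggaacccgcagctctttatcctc
Cdc20: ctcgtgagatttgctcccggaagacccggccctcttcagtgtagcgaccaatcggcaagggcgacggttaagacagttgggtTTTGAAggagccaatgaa
Both strands were searched, and the matches begin 54, 92 and 18 bases before the start sites of Cyp1a1, Txnrd1 and Cdc20. In windows of 250 bases before to 50 bases after the start, and counting each start of a gene that has several, TGACNNNGC occurred in 12.4% of all 32851 promoters, in 10 of 31 promoters found for 24 tested NRF2 targets (32.3%) and in 4 of 9 promoters of 6 that changed (44.4%). GCGTG occurred in 32.4% of all promoters, in 4 of 6 of the AhR list (66.7%) and in 1 of 3 of its changed genes. TTTGAA occurred in 17.9% of all promoters, in 20 of 27 promoters of 25 genes of the mitotic list (74.1%) and in 3 of 5 promoters of 4 that changed. The matches describe letters and say nothing about binding in these livers.

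Other stress groups moved less. Among 20 targets of ATF4, the factor of the amino acid and integrated stress response, 3 fell, Slc3a2, Cebpb and Sesn2, and none rose, with a median log2 change of -0.45. Slc3a2, the heavy chain of amino acid exchangers, had 25.1 and 28.9 CPM in recovery and 45.6 and 46.6 CPM under thioacetamide (log2 change -0.77, edgeR adjusted p = 0.0149). Chaperones of the endoplasmic reticulum went the other way in level, with a median log2 change of 0.33 and 14 of 20 genes non-overlapping and above. Only Derl3, a component of the degradation machinery of that compartment, passed (5.0%, near the 3.75% of all tested genes). Derl3 had 2.14 and 1.91 CPM in recovery, 0.180 and 0.0632 CPM under thioacetamide and 1.19 and 1.13 CPM in control livers (log2 change 3.97 ± 0.68, edgeR adjusted p = 0.0125). Of 14 genes of metal and iron handling, ferritin heavy chain (Fth1) and transferrin receptor (Tfrc) fell and the manganese exporter Slc30a10 rose. Fth1 had 792 and 990 CPM in recovery and 1880 and 1560 CPM under thioacetamide, and Slc30a10 had 80.6 and 64.1 CPM in recovery and 24.0 and 31.8 CPM under thioacetamide, with controls at 80.9 and 70.1 CPM. The log2 changes were -0.95 for Fth1, -1.03 for Tfrc and 1.37 for Slc30a10, with edgeR adjusted p of 0.0328, 0.0224 and 0.00743.

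Genes of mitosis had lower levels in recovery. All 30 tested genes of the G2 and M phases had both recovery libraries below both thioacetamide libraries, and their median log2 change was -1.60. The median was -1.17 without recovery library 1 and -2.36 without recovery library 2. Only 5 of the 30 passed the test, each a fall, and without the libraries low in Malat1 the number was 11. Cyclin B1 (Ccnb1, ENSMUSG00000041431, chr13:100778650-100786570), the partner of CDK1 at entry into mitosis, had 1.09 and 2.26 CPM in recovery, 12.7 and 10 CPM under thioacetamide and 0.32 and 0.855 CPM in control livers. Cdc20, the activator that lets cells leave metaphase, had 1.84 and 4.93 CPM in recovery, 18.5 and 22.9 CPM under thioacetamide and 1.05 and 2.74 CPM in control livers. In both genes recovery library 1 was the lower of its pair and the recovery libraries lay between control and thioacetamide or at the control range. The log2 changes were -2.75 ± 0.51 for Ccnb1 (SE, edgeR adjusted p = 0.0168) and -2.61 ± 0.56 for Cdc20 (adjusted p = 0.0278). Kif20a and Ect2, which act in the splitting of the cell, and the centrosome kinase Nek2 also fell, by 2.32, 1.98 and 1.34 on the log2 scale. The summed level of the list was 56.42 and 130 CPM in recovery and 324.6 and 277.4 CPM under thioacetamide. Mki67, the usual histological marker of cycling cells, had 10.7 and 24.3 CPM in recovery and 48.4 and 36.9 CPM under thioacetamide and did not pass (log2 change -1.28, adjusted p = 0.223).

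Of 26 genes of the G1 and S phases, 2 fell and none rose, the median log2 change was -0.44, and both recovery libraries lay below both thioacetamide libraries in 16 and above them in 2. Cyclin D1 (Ccnd1), which starts the hepatocyte cell cycle, had 38.1 and 63.8 CPM in recovery and 171 and 122 CPM under thioacetamide, and its control level was 26.0 and 25.9 CPM (log2 change -1.52 ± 0.27, edgeR adjusted p = 0.0143). Mcm7, a subunit of the replicative helicase, fell less, with 12 and 12.2 CPM in recovery and 18.2 and 17.5 CPM under thioacetamide (log2 change -0.56, adjusted p = 0.0458). In whole liver, fewer cells of a type and less RNA per cell cannot be told apart, here and for every group that follows. Ribosomal protein and proteasome genes had lower levels too, though none passed the test. Recovery was below thioacetamide without overlap in 23 of 25 ribosomal and 19 of 25 proteasome genes, with median log2 changes of -0.58 and -0.3. Without the libraries low in Malat1, 18 and 2 fell. Against control the medians at 1 week were -1.0 and -0.87, while that of the G2 and M phase genes was 1.06. The ribosomal sum was 10050 CPM in control library 1 and 4098 CPM in control library 2.

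Fetal and injury-linked genes included some of the largest falls. Alpha-fetoprotein (Afp, ENSMUSG00000054932, chr5:90490737-90508907), the main plasma protein of the fetal liver, which regenerating hepatocytes can make again, had 2.14 and 2.02 CPM in recovery and 35.0 and 34.1 CPM under thioacetamide, with controls at 1.42 and 0.445 CPM. The libraries of each group were nearly equal and the fall was 16.6-fold, a log2 change of -4.05 ± 0.43 (SE, edgeR adjusted p = 0.0031). Golm1, a Golgi protein that marks diseased hepatocytes, had 10.5 and 12.4 CPM in recovery, 28.8 and 22.2 CPM under thioacetamide and 3.47 and 4.45 CPM in control livers (log2 change -1.15, adjusted p = 0.016). These were the 2 of 14 tested oncofetal genes that fell; the list's median log2 change was -0.88, and -0.08 without TAA library 1.

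Single genes that signal tissue damage and inflammation fell. Tnfrsf12a, the receptor for the injury cytokine TWEAK, had 4.02 and 6.04 CPM in recovery and 54.1 and 30.4 CPM under thioacetamide (log2 change -3.07 ± 0.55, edgeR adjusted p = 0.0148). Klf6, an early transcription factor of injured liver, had 10.7 and 16.1 CPM in recovery, 84.2 and 80.2 CPM under thioacetamide and 10.1 and 9.17 CPM in control livers (log2 change -2.62 ± 0.29, adjusted p = 0.0031). Both were several times higher in each thioacetamide library than in either recovery library. Slpi, a secreted protease inhibitor, had 0.851 and 1.32 CPM in recovery and 11.4 and 10.3 CPM under thioacetamide, and the chemokine Cxcl10 had 2.14 and 2.67 CPM in recovery and 19.8 and 11.2 CPM under thioacetamide. Their log2 changes were -3.31 (adjusted p = 0.0241) and -2.69 (adjusted p = 0.00876). Of 19 chemokines and cytokines 3 fell, Slpi, Tnfrsf12a and the alarmin Il33 (log2 change -1.52), and 1 rose, Cxcl12, the chemokine that retains CXCR4-bearing cells, with 263 and 281 CPM in recovery and 120 and 140 CPM under thioacetamide (log2 change 1.06 ± 0.17, adjusted p = 0.00932). Cxcl10 was the single fall among 24 interferon-response genes (4.17%). Their median log2 change was 0.49, and both recovery libraries lay above both thioacetamide libraries in 15 and below them in 1. Lcn2 was the single fall among 20 acute-phase genes (5.0%), with 2.65 and 2.96 CPM in recovery and 18.8 and 6.82 CPM under thioacetamide (log2 change -2.19). Both shares were near the 3.75% of all tested genes that changed. The Lcn2 call was lost without the libraries low in Malat1 (log2 change -1.27, edgeR adjusted p = 0.0683). Of 16 immediate early genes, which also answer to handling at death, Klf6 and Jund fell and none rose.

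**Figure D2:**
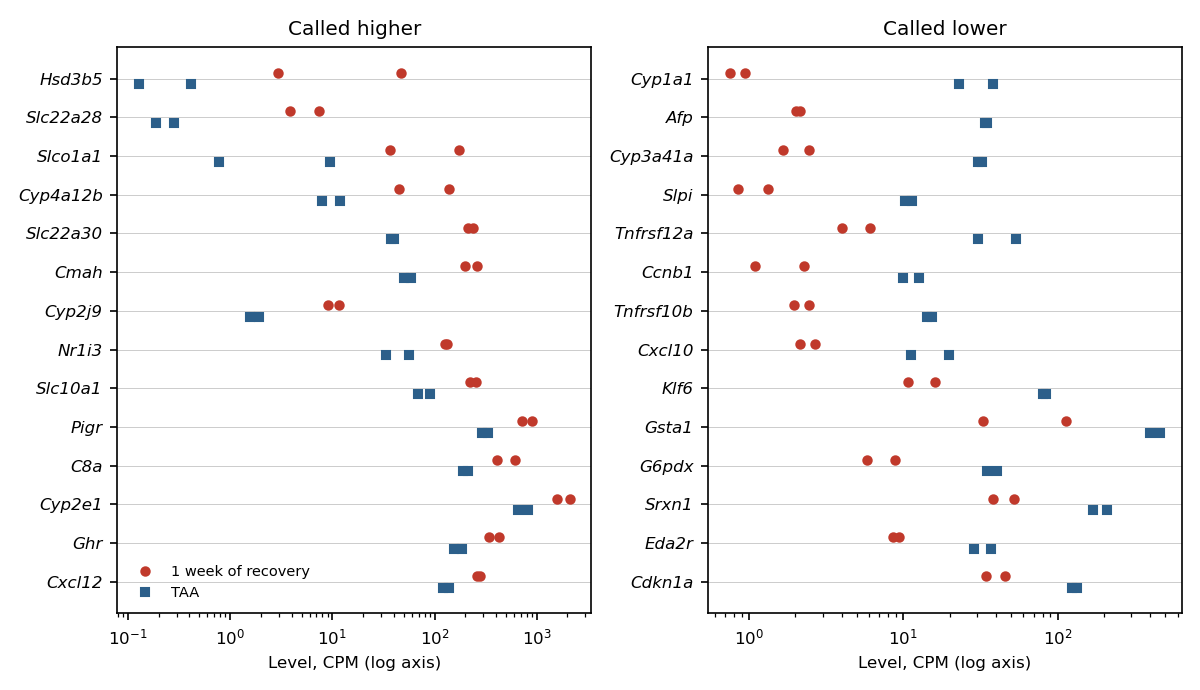
CPM of 28 named genes in each library on a log axis, genes that rose in the left panel and genes that fell in the right panel. Circles are the 2 recovery libraries and squares the 2 thioacetamide libraries, drawn below them; no gene has overlapping groups, and the recovery circles lie apart for Hsd3b5, Slco1a1 and Gsta1.

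Among the rises were many genes of differentiated hepatocytes, with some of the largest in genes normally higher in male than in female mouse liver, which follow the pulsed pattern of male growth hormone. Of 29 tested male-biased genes 9 rose and none fell, with a median log2 change of 1.85 (1.0 without recovery library 1), and in 20 both recovery libraries were above both thioacetamide libraries. Hsd3b5, a steroid reductase of male liver (ENSMUSG00000038092, chr3:98618634-98630252), had 46.6 and 2.93 CPM in recovery, 0.128 and 0.411 CPM under thioacetamide and 359 and 181 CPM in control livers. Slco1a1, an uptake carrier for bile acids and steroid sulphates (ENSMUSG00000041698, chr6:141907853-141946962), had 174 and 36.9 CPM in recovery, 0.771 and 9.51 CPM under thioacetamide and 629 and 324 CPM in control livers. Recovery library 1 was the higher in both genes, and both recovery libraries were below the controls. The log2 changes were 6.55 ± 1.38 for Hsd3b5 (SE, edgeR adjusted p = 0.0252) and 4.37 ± 0.98 for Slco1a1 (adjusted p = 0.0334).

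The arachidonate and fatty acid hydroxylase Cyp4a12b had 140 and 44.9 CPM in recovery and 7.89 and 11.9 CPM under thioacetamide (log2 change 3.22 ± 0.47, edgeR adjusted p = 0.00763) and its reads may be shared with Cyp4a12a. The carrier-family gene Slc22a28 had 7.35 and 3.87 CPM in recovery, 0.283 and 0.190 CPM under thioacetamide and 29.8 and 22.2 CPM in control livers (log2 change 4.52 ± 0.52, adjusted p = 0.0031). Cyp2j9, an epoxygenase, had 8.98 and 11.7 CPM in recovery, 1.93 and 1.58 CPM under thioacetamide and 2.65 and 5.17 CPM in control livers (log2 change 2.56, adjusted p = 0.00332), so it stood above control, by 1.39 on the log2 scale (adjusted p = 0.0385). The male-biased list as a whole summed to 22490 and 11090 CPM in recovery, 7901 and 9109 CPM under thioacetamide, with the first recovery library well above the other 3. Without the libraries low in Malat1, 5 of its members were higher.

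Female-biased genes moved opposite in the few that passed: 3 of 23 fell and none rose, with a median log2 change of -0.61 (0.06 without TAA library 1). Cyp3a41a had 1.67 and 2.43 CPM in recovery, 30.4 and 32.4 CPM under thioacetamide and 1.46 and 0.547 CPM in control livers, a 15.2-fold fall (edgeR adjusted p = 0.0031); reads of this family may be split among close copies. Slc22a27, a carrier of the same family as Slc22a28, had 0.238 and 1.64 CPM in recovery and 16.1 and 4.52 CPM under thioacetamide (log2 change -3.43, adjusted p = 0.0321). In the growth hormone pathway itself 2 of 13 genes rose, the receptor Ghr and the carrier of circulating IGF1, Igfals. Ghr had 425 and 342 CPM in recovery and 187 and 154 CPM under thioacetamide (log2 change 1.17 ± 0.20, adjusted p = 0.0137), and Igfals had 78.1 and 59.9 CPM in recovery and 27.6 and 30.7 CPM under thioacetamide (log2 change 1.24, adjusted p = 0.0187).

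Of 21 hepatocyte transcription factors 1 rose and none fell (4.76%, near the 3.75% of all tested genes that changed). That gene was Nr1i3, which encodes the xenobiotic receptor CAR: it had 133 and 126 CPM in recovery, 33.8 and 56.5 CPM under thioacetamide and 93.5 and 103 CPM in control livers (log2 change 1.52 ± 0.31, edgeR adjusted p = 0.0218). Among 24 cytochromes and regulators tied to CAR and its relative PXR, Nr1i3 and Cyp2c37 rose while Cyp3a41a and Cyp2c39 fell. None of 14 general hepatocyte markers passed (3 were higher without the libraries low in Malat1), and the log2 change of Alb was -0.13 (adjusted p = 0.715).

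Some zonated genes rose. Of 22 pericentral genes, those made around the central vein where thioacetamide kills, Cyp2e1, Cyp1a2, Cyp2c37 and Rgn rose and Nt5e fell, with a median log2 change of 0.68. Cyp2e1, the enzyme that activates thioacetamide (ENSMUSG00000025479, chr7:140763739-140774981), had 2100 and 1590 CPM in recovery, 825 and 650 CPM under thioacetamide and 5820 and 3600 CPM in control livers. It was 2.50-fold higher than under thioacetamide (log2 change 1.32 ± 0.26, edgeR adjusted p = 0.0198) and was still below control (log2 change -1.35, adjusted p = 0.0308). Glutamine synthetase (Glul), made only in the innermost pericentral cells, had 101 and 108 CPM in recovery, 72.2 and 71.9 CPM under thioacetamide and 1010 and 897 CPM in control livers. Its groups did not overlap, yet the log2 change from thioacetamide, 0.54 ± 0.18, did not pass (adjusted p = 0.121), while the log2 change from control was -3.19 (adjusted p = 2.66e-05). Nt5e, an ectoenzyme that makes adenosine, had lower levels in recovery (15.6 and 30.5 CPM in recovery, 58.4 and 63.7 CPM under thioacetamide). Against control, 9 of the 22 were lower and 2 higher at 1 week. Of 21 periportal genes 2 rose and none fell: Pigr, the receptor that carries IgA into bile, with 906 and 710 CPM in recovery and 289 and 333 CPM under thioacetamide (log2 change 1.38 ± 0.17, adjusted p = 0.00396), and Etnppl, an enzyme of phosphoethanolamine breakdown (log2 change 0.89).

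Several genes of bile acid synthesis and uptake rose. Of 19 synthesis genes 5 were higher (Hsd3b7, Scp2, Cyp27a1, Cyp46a1 and Slc27a2) and none lower, with a median log2 change of 0.63 and 14 non-overlapping and above. Hsd3b7, an early step common to the pathways, had 364 and 280 CPM in recovery and 130 and 149 CPM under thioacetamide, and Scp2, the peroxisomal thiolase that shortens the side chain, had 2800 and 2260 CPM in recovery and 1180 CPM in each thioacetamide library. Both lay between thioacetamide and control, with log2 changes of 1.21 (edgeR adjusted p = 0.016) and 1.10 (adjusted p = 0.0161). Cyp27a1, the first enzyme of the alternative pathway, rose by 0.63 on the log2 scale, whereas Cyp7a1, the rate-limiting enzyme of the classical pathway, had 99.8 and 122 CPM in recovery and 80.6 and 98.8 CPM under thioacetamide, with the nearest libraries almost equal, and did not pass (adjusted p = 0.715). The sodium-dependent bile acid importer NTCP (Slc10a1, ENSMUSG00000021135, chr12:80953183-80968705) had 255 and 224 CPM in recovery, 91.2 and 69.2 CPM under thioacetamide and 428 and 304 CPM in control livers (log2 change 1.58 ± 0.20, adjusted p = 0.00396). The canalicular export pump BSEP (Abcb11) had 594 and 583 CPM in recovery and 349 and 283 CPM under thioacetamide (log2 change 0.90, adjusted p = 0.0142). In all, 4 of 19 transport genes rose, Slc10a1, Abcb11, Slco1a1 and the organic anion importer Slco2b1 (log2 change 1.17). Slc10a2, the importer of bile duct cells and ileum, fell, with 15 and 16.9 CPM in recovery and 44.2 and 38.5 CPM under thioacetamide, and the canalicular pump Abcc2 fell too. Abcc2, like Hmox1, Aox1, Rgn and Slc27a2 above, was named after its value was seen, to complete a count.

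Some genes of drug disposal also rose. The median log2 change was 0.26 both for 16 organic ion carriers and for 24 conjugation enzymes, beside 0.008 for all genes. Both recovery libraries lay above both thioacetamide libraries in 7 of the carriers and 12 of the enzymes, and below them in 4 and 5. Over all tested genes each of these shares was 27.6%. The smallest adjusted p of all named genes was that of Slc22a30, a member of the organic anion carrier family (ENSMUSG00000052562, chr19:8335371-8405111), with 237 and 213 CPM in recovery, 37.1 and 39.9 CPM under thioacetamide and 212 and 204 CPM in control livers. The recovery libraries were at the control level, and the rise was 5.84-fold (log2 change 2.55 ± 0.22, edgeR adjusted p = 0.00138); without recovery library 1 it was 2.47 on the log2 scale (adjusted p = 0.0214). Of 16 organic ion carriers 4 rose, Slc22a30, Slc22a28, Slc17a2 and Slc47a1, and Slc22a27 fell. Among 24 conjugation enzymes 4 rose and none fell: the sulphotransferase Sult2a8 (319 and 121 CPM in recovery, 29.5 and 57.7 CPM under thioacetamide, log2 change 2.33), the glycosyltransferases Ugt3a1 and Ugt2a3 (log2 changes 1.49 and 1.05) and the N-acetyltransferase Nat8 (log2 change 1.26). Cmah, which makes the sialic acid Neu5Gc that human liver lacks, had 260 and 197 CPM in recovery and 50.3 and 58.4 CPM under thioacetamide (log2 change 2.07).

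Intermediary metabolism changed in single enzymes. Of 30 amino acid catabolic genes 3 rose and none fell, the kynurenine pathway enzymes Afmid (91.3 and 69.8 CPM in recovery, 25.4 and 29.9 CPM under thioacetamide, log2 change 1.54, edgeR adjusted p = 0.0102) and Kynu (log2 change 0.64) and the proline dehydrogenase Prodh (log2 change 1.45). None of 31 genes of choline and one-carbon metabolism passed, though 4 were higher without the libraries low in Malat1. Glycogen synthase (Gys2), glycogen phosphorylase (Pygl) and pyruvate carboxylase (Pcx) rose by 0.83, 0.67 and 0.83 on the log2 scale and the pyruvate kinase isoform of dividing cells, Pkm, fell by 0.89, out of 22 genes of glucose metabolism. Of 27 genes of fatty acid oxidation 2 rose and 1 fell; the peroxisomal thiolase Acaa1b rose and the thioesterase Acot2 fell, with 9.36 and 14.8 CPM in recovery and 67.7 and 34.8 CPM under thioacetamide. Of 20 lipogenic genes Thrsp, a regulator of lipogenesis, rose and the desaturase Scd2 fell, with 83.3 and 153 CPM in recovery, 475 and 285 CPM under thioacetamide and 9.96 and 14.0 CPM in control livers.

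Genes of cholesterol synthesis had lower levels: 2 of 25 fell and none rose, the median log2 change was -0.54 (-0.26 without TAA library 1), and 18 were non-overlapping and below. Msmo1, which removes methyl groups from the sterol ring, had 84.1 and 85.5 CPM in recovery and 190 and 137 CPM under thioacetamide (log2 change -0.95, edgeR adjusted p = 0.0456).

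Several plasma protein genes of complement and clotting rose. Of 23 complement genes 8 rose and none fell, with a median log2 change of 0.76; 12 rose without the libraries low in Malat1, and the median was 0.45 without recovery library 1. C8a, a part of the membrane attack complex that is also male-biased (ENSMUSG00000035031, chr4:104815679-104876398), had 616 and 406 CPM in recovery and 192 and 215 CPM under thioacetamide (log2 change 1.33 ± 0.24, SE, edgeR adjusted p = 0.0148). The lectin pathway proteases Masp1 and Masp2 rose by 0.84 and 1.02 on the log2 scale. Of 20 coagulation genes 3 rose and none fell, prekallikrein (Klkb1, 223 and 197 CPM in recovery, 109 and 80.2 CPM under thioacetamide, log2 change 1.15), factor V (F5, 0.80) and protein Z (Proz, 0.78). Of 19 apolipoproteins Apoa4 fell, with 140 and 143 CPM in recovery and 450 and 412 CPM under thioacetamide (log2 change -1.61, edgeR adjusted p = 0.0161), and none rose. That share, 5.26%, was near the 3.75% of all tested genes.

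Without the libraries low in Malat1, 18 of the 111 named genes that changed no longer passed. They were Cyp4a12b, Hsd3b5, Slco1a1, Sult2a8, Nr1i3, Prodh, Thrsp and Mup21 among the rises and Gsta1, Lcn2, Il33, Slc22a27, Slc10a2, Nid1, Msmo1, Scd2, Dbp and Nr1d1 among the falls, and each kept its direction. Other counts of rises went up: in fatty acid oxidation 8 genes rose, in conjugation 9, in coagulation 8, in bile acid synthesis 8, in bile acid transport 6, in the apolipoproteins, amino acid catabolism and the growth hormone pathway 5 each, and in the periportal, endothelial and lipogenic lists 4 each. Of the cholangiocyte genes 2 were then higher, and of the macrophage and B cell genes 2 each were lower. In the TGF-beta and PDGF list 3 genes fell, in the oncofetal list 4 fell and 1 rose, and in cholesterol synthesis 1 fell and 1 rose. Some medians leaned on recovery library 1. Without it they were -0.10 for the female-biased, -0.27 for the G1 and S phase, -0.33 for the cholangiocyte and 0.32 for the interferon-response genes. The erythroid median went from 1.01 to 0.26 without it, and that of the hepatocyte markers from 0.27 to 0.02.

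**Figure D3:**
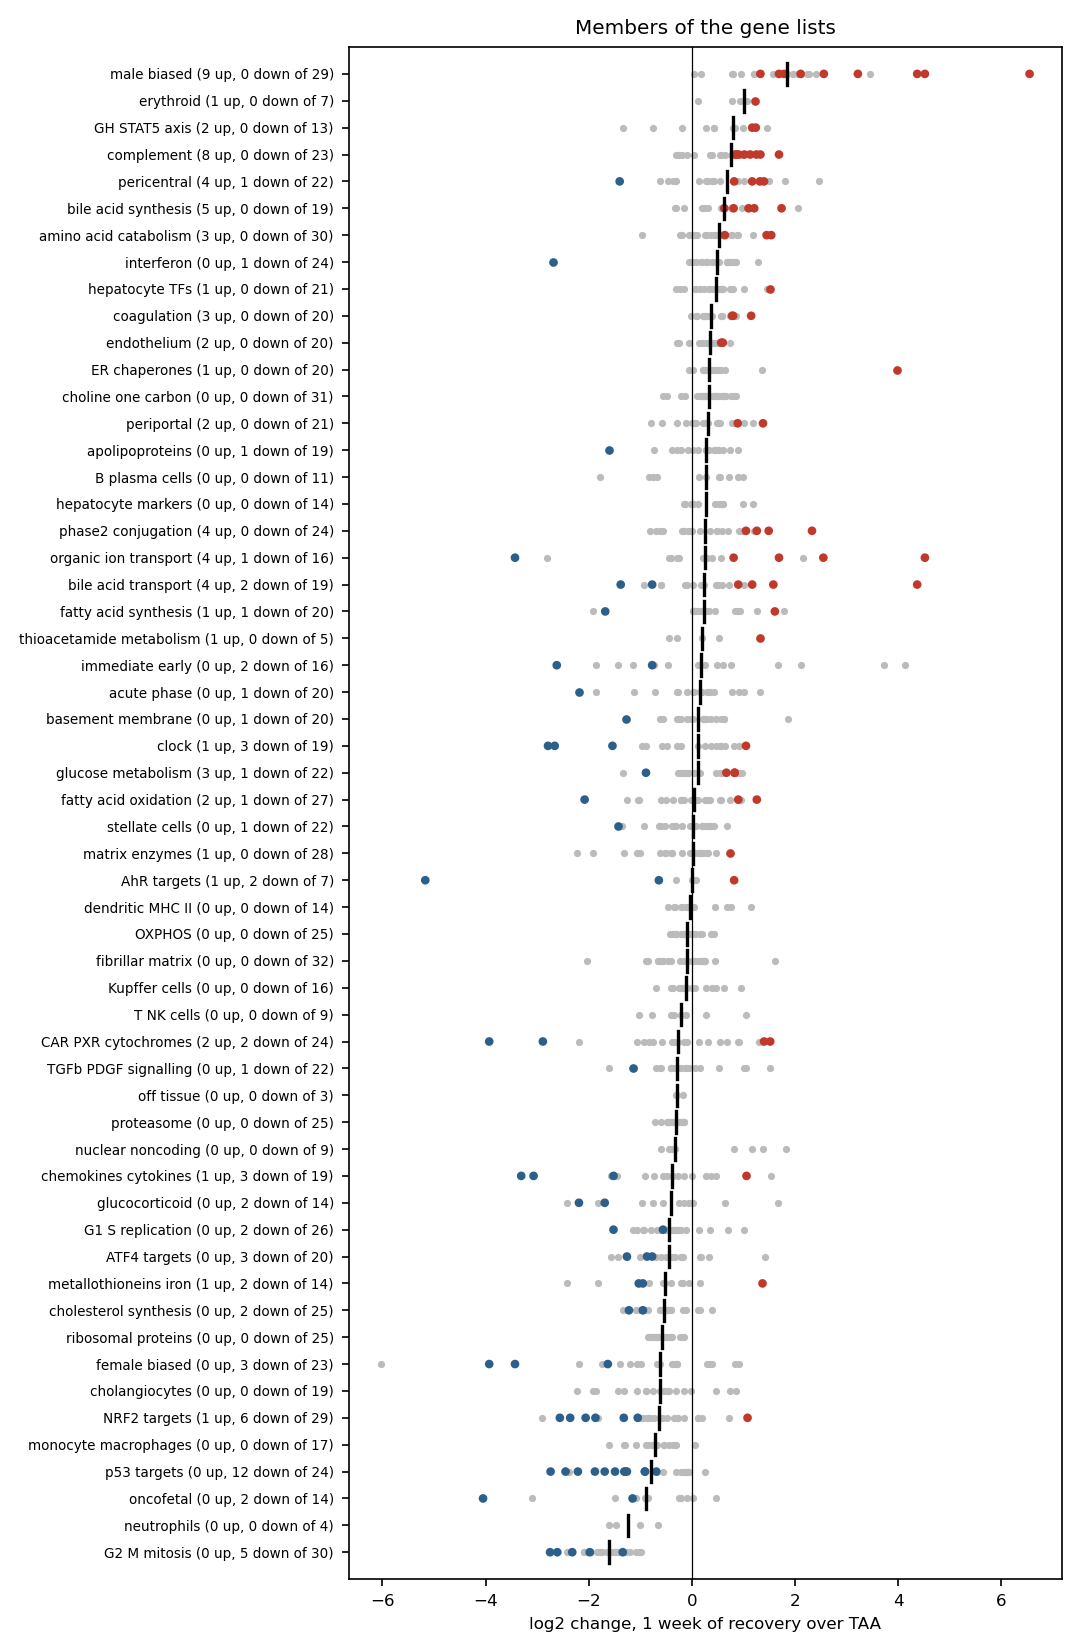
Log2 change of every tested member (dots) of 56 gene lists, recovery at 1 week minus end of thioacetamide, with a black bar at the median of each list and the numbers called higher and lower in the labels. The male-biased median lies at 1.85 and the G2 and M phase median at -1.60, while the fibrillar matrix median is -0.10.

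Genes of the scar matrix did not pass. None of 32 fibrillar matrix genes rose or fell, and the median log2 change was -0.10, with a turn to 0.31 when TAA library 1 was left out. The collagen gene Col1a1 (ENSMUSG00000001506, chr11:94936224-94953042) had 70.1 and 113 CPM in recovery, 201 and 133 CPM under thioacetamide and 7.54 and 10.3 CPM in control livers. Col3a1 had 130 and 203 CPM in recovery, 272 and 170 CPM under thioacetamide and 46.6 and 31.6 CPM in control livers. The groups did not overlap in Col1a1 and did in Col3a1, and the changes from thioacetamide, -0.86 ± 0.45 and -0.41 on the log2 scale, did not pass (edgeR adjusted p = 0.322 and 0.581). Against control both were higher at 1 week, by 3.36 (adjusted p = 0.0115) and 2.09 (adjusted p = 0.0286) on the log2 scale, and 10 of the 32 fibrillar genes were higher than control and none lower. The stellate cell marker Acta2 had 1.40 and 2.52 CPM in recovery and 3.91 and 6.16 CPM under thioacetamide, and the inhibitor of matrix breakdown Timp1 had 0.0681 and 0.352 CPM in recovery and 1.31 and 0.726 CPM under thioacetamide; neither passed (adjusted p = 0.182 and 0.127).

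Around the scar few genes passed, at a share near the 3.75% of all tested genes. Of 22 stellate cell markers 1 fell and none rose, and 3 fell without the libraries low in Malat1. Nid1, a basement membrane linker, had 43.4 and 67.3 CPM in recovery and 157 and 113 CPM under thioacetamide (log2 change -1.28, edgeR adjusted p = 0.0193), 1 of 20 basement membrane genes. The mitogen Pdgfa fell by 1.14 on the log2 scale, 1 of 22 genes of TGF-beta and PDGF signalling, and the membrane protease Mmp15 rose by 0.74, 1 of 28 matrix enzymes.

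Markers of other liver cells mostly did not pass. None of the 19 cholangiocyte, 16 Kupffer cell, 17 monocyte-derived macrophage, 4 neutrophil, 9 T and NK cell, 11 B cell or 14 antigen-presentation genes tested rose or fell, and Ly6g, Mpo and Cd3d were at 3 counts or fewer in each of the 4 libraries. The cholangiocyte genes summed to 347.5 and 493.7 CPM in recovery and to 757.8 and 286.8 CPM under thioacetamide, so that TAA library 1 was the highest and TAA library 2 the lowest; their median log2 change, -0.62, was 0.34 without TAA library 1. Macrophage genes summed to 219.7 and 312.4 CPM in recovery and 650.4 and 327.4 CPM under thioacetamide. Their median log2 change was -0.71, and -0.49 without TAA library 1. Both recovery libraries lay below both thioacetamide libraries in 11 of the 17 macrophage genes and above them in none, beside 27.6% each way over all tested genes. Endothelial markers had a median log2 change of 0.35, and 2 of 20 rose, the sinusoidal genes Fcgr2b (33.5 and 37.9 CPM in recovery, 23.8 and 24.3 CPM under thioacetamide, log2 change 0.57) and Dnase1l3 (log2 change 0.60). Of 7 erythroid genes Alas2, the haem synthesis enzyme of red cell precursors, rose (106 and 74.8 CPM in recovery, 35.5 and 41.7 CPM under thioacetamide, log2 change 1.23), and the erythroid sum was 884.3 and 396.7 CPM in recovery and 286.2 and 331.9 CPM under thioacetamide. The part of these cell types in the hepatocyte and stress results was not tested.

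Clock genes differed as well, and the labels give no time of day. Of 19 clock genes 3 fell and 1 rose. Dbp, an output gene of the clock with a steep daily rhythm, had 1.63 and 2.05 CPM in recovery and 12.2 and 13.3 CPM under thioacetamide, and Nr1d1, the repressor REV-ERB alpha, had 3.51 and 3.90 CPM in recovery and 36.3 and 10.5 CPM under thioacetamide. Their log2 changes were -2.79 (edgeR adjusted p = 0.0446) and -2.66 (adjusted p = 0.0404), and Nr1d2 fell by 1.54 on the log2 scale. Of 14 genes in a list of glucocorticoid responses 2 fell and none rose (14.3%, beside 3.75% of all tested genes), with a median log2 change of -0.41. Both recovery libraries lay below both thioacetamide libraries in 7 of the 14 and above them in 1. Hour of sampling and recovery cannot be told apart for the genes of either list. The same holds for any gene in the groups above whose level varies over the day.

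Set against the untreated livers, the first recovery week differed in 736 genes (4.26%), 329 higher (1.9%) and 407 lower (2.35%), a comparison that shares the recovery libraries with the one above. Several lists held part of the gap to control. Of 29 male-biased genes 7 were lower and 1 was higher, and of 22 pericentral genes 9 were lower and 2 higher. Of 24 conjugation enzymes 6 were lower. Higher than control were 10 of 32 fibrillar matrix, 6 of 28 matrix enzyme, 7 of 24 p53 target, 7 of 19 cholangiocyte and 5 of 17 macrophage genes. The count rests on single libraries: it was 94 without control library 1, 8698 without control library 2, 56 without recovery library 1 and 13 without recovery library 2.

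Between the second and the first week of recovery no gene passed edgeR's test (0.0% of those tested; 908 had an unadjusted p under 0.05, and DESeq2 called 40). Glul was at 1010 and 897 CPM in control livers, 72.2 and 71.9 CPM at the end of thioacetamide, 101 and 108 CPM at 1 week, 215 and 222 CPM at 2 weeks and 229 and 324 CPM at 4 weeks. Every recovery library was below both controls. Cyp2e1 was at 5820 and 3600 CPM in control livers, 825 and 650 CPM at the end of thioacetamide, 2100 and 1590 CPM at 1 week, 3110 and 2530 CPM at 2 weeks and 3570 and 3710 CPM at 4 weeks. Col1a1 was at 7.54 and 10.3 CPM in control livers, 201 and 133 CPM at the end of thioacetamide, 70.1 and 113 CPM at 1 week, 44.6 and 34.0 CPM at 2 weeks and 30.2 and 53.3 CPM at 4 weeks. At 4 weeks Glul and Col1a1 were still apart from control, while Cyp2e1 lay beside the lower control library. Eda2r had 8.61 and 9.32 CPM at 1 week, 6.89 and 5.28 CPM at 2 weeks and 2.75 and 3.60 CPM at 4 weeks. Srxn1 had 38.3 and 52.3 CPM at 1 week, 47.6 and 43.9 CPM at 2 weeks and 33.9 and 27.5 CPM at 4 weeks. Cyp1a1 had 0.749 and 0.938 CPM at 1 week, 0.383 and 0.595 CPM at 2 weeks and 0.876 and 1.12 CPM at 4 weeks.

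**Figure D4:**
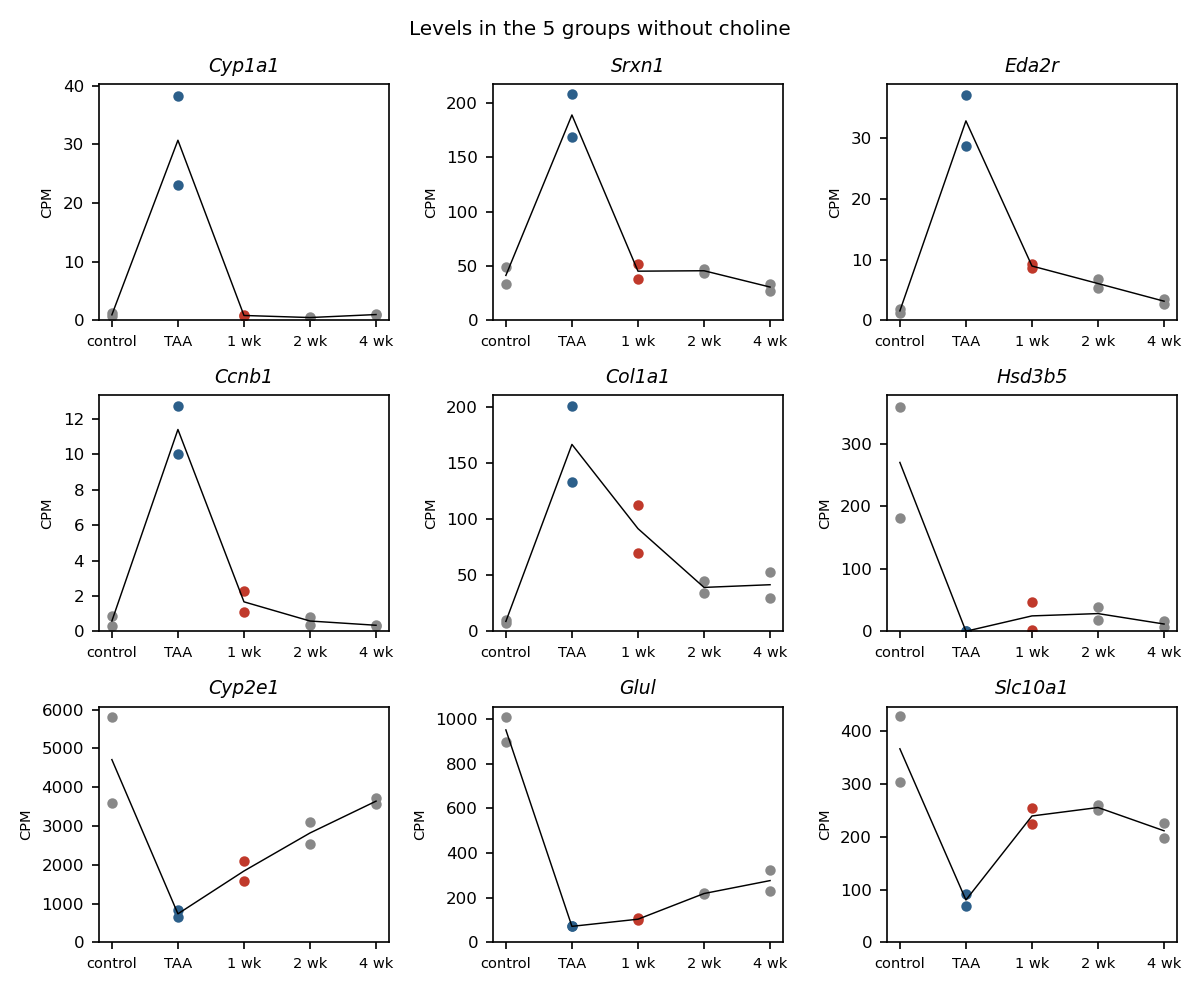
CPM of 9 named genes on a linear axis in control livers, at the end of thioacetamide and after 1, 2 and 4 weeks of recovery without choline. Points are libraries and the line joins group means of 2. Cyp1a1 and Srxn1 are back near control at 1 week, while Glul, at 101 and 108 CPM, and Col1a1, at 70.1 and 113 CPM, are still away from it.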

How the data were processed

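RNA from whole mouse liver was measured in 16 libraries, 2 in each of 8 groups. Per the labels' protocols, RNA was taken up in TRIzol, depleted of ribosomal RNA and made into directional libraries. The submitters' processing notes name STAR 2.7.10b, RSEM 1.3.3, DESeq2 1.36.0 and GRCm38; the sources used here do not give their roles, the annotation release or the strand setting. The authors deposited a table of expected counts per gene, of which 8.7% of values were not whole, and a table of TPM. Of each, 2 columns matched no sample and were not used.

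Expected counts were rounded, filtered with filterByExpr (17292 genes left), scaled by TMM and tested with edgeR 4.0.16 (quasi-likelihood, robust, 8 groups, 8 residual degrees of freedom) in R 4.3.3; p-values were adjusted by Benjamini-Hochberg over all tested genes. Levels are CPM on the TMM scale. The deposited TPM values were read and not tested. DESeq2 1.42.0 was an alternative. On simulated counts with 17292 genes, 37 of 100 genes changed by 1 on the log2 scale and 99 of 100 changed by 2 were recovered, with 3 false calls. The changed genes had a mean of at least 5 CPM, and each gene's spread followed its level alone. No simulated library stood apart as TAA library 1 did, so these shares cannot be carried over to the real libraries. Same-numbered recovery and TAA libraries did not deviate together, so the numbers were not used as pairs. Same-numbered control and TAA libraries did (r = 0.587), and library 1 of each was low in Malat1. For control and recovery r was 0.019.

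The genes named are the 15 largest rises and 15 largest falls with at least 5 CPM in the higher group, up to 4 changed members of each gene list, the 2 most abundant members of lists with none, and a fixed set of markers; predicted loci were left out. The comparison and the gene lists were chosen with earlier results of these data known. Hmox1, Aox1, Rgn, Slc27a2, Abcc2, Ctrb1, Adipoq, Ckm, Xist, Ly6g, Mpo and Cd3d fall outside that rule; the first 5 were chosen after their values were seen. Upstream sequences are RefSeq's for GRCm38.p6, found for 119 of the 147 named genes. Coordinates of genes come from the deposited tables (GRCm38) and are counted from 1. Figures were drawn with matplotlib 3.10.9. Values of some genes are not reported here.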

Additional observations from a re-analysis of the deposited data

How the results depend on the processing

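None of the 111 named genes that changed reversed sign under any alternative run, but the number of calls moved widely. The 648 changed genes (340 higher, 308 lower) became 1645 (1016 and 629) with no filter on low counts, 5 (2 and 3) with the 2 groups fitted alone, 23 (11 and 12) with the 5 groups without choline, 2042 (1015 and 1027) without both libraries low in Malat1, 1465 (800 and 665) with DESeq2's test and 341 (195 and 146) when a log2 change of at least 1 was also required. Leaving out single libraries gave 1 to 2888 genes, 1 to 1370 higher and 0 to 1643 lower; leaving out libraries of the other 6 groups was added after seeing the data. DESeq2's size factors gave 607 genes, 595 of them shared. Of those 111 genes, 111 passed in DESeq2, 93 without both libraries low in Malat1, 62 without recovery library 2, 60 without TAA library 2, 24 without TAA library 1, 4 in the 2 groups alone (Afp, Cyp1a1, Cyp3a41a and Slc22a30) and 1 without recovery library 1. Where a setting leaves a group with 1 library, that library is assumed to vary like the other groups. Against control, 736 became 3618 with no filter, 0 with the 2 groups alone (edgeR; 5309 at an unadjusted p under 0.05 over all 8 groups), 50 with the 5 groups, 294 without both libraries low in Malat1, 2712 with DESeq2's test and 13 to 8698 without single libraries. For the second against the first week, 0 became 2 with DESeq2's size factors, 258 with no filter, 78 with the 2 groups alone, 78 without both libraries low in Malat1, 40 with DESeq2's test and 0 to 1 without single libraries. The cause was not tested. The replicate block gave 785 genes (627 shared), and 1483 against control; same-numbered recovery and TAA libraries deviated against each other (r = -0.206), and a block with the TAA numbers crossed, added after seeing the data, gave 708 (601 shared). Of the medians of 56 lists, 13 moved by more than the replicate spread without TAA library 1 and 13 without both libraries low in Malat1, 9 without TAA library 2, 5 without recovery library 1 and 9 without recovery library 2; none moved with the other scaling, the filter or the block. At this depth and 2 libraries a group, a gene that did not pass may still differ.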

Other observations

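Outside the gene lists 529 of the 648 changed genes remained; apart from Ces3b and Dio1, those below were picked after their values were seen, and all are given as values only. Cytoskeletal genes that stressed hepatocytes make in excess were lower: keratin 8 (Krt8) had 230 and 234 CPM in recovery and 608 and 419 CPM under thioacetamide, and its partner keratin 18 (Krt18) had 150 and 151 CPM in recovery and 359 and 297 CPM under thioacetamide. Both were nearly equal between the recovery libraries, with log2 changes of -1.14 and -1.13 (edgeR adjusted p = 0.0234 and 0.0145). Of the 3 small Maf genes, whose proteins pair with NRF2 on DNA, Maff and Mafk fell, while Mafg did not pass (51.9 and 50.7 CPM in recovery, 45.4 and 65.1 CPM under thioacetamide). Maff had 2.21 and 2.14 CPM in recovery and 15.1 and 9.82 CPM under thioacetamide (log2 change -2.52, adjusted p = 0.00475), and Mafk had 9.66 and 10.9 CPM in recovery and 26.6 and 25.6 CPM under thioacetamide (log2 change -1.34, adjusted p = 0.0031). The adhesion molecules Icam1 and Vcam1, which hold leukocytes on endothelium, fell by 1.10 and 1.04 on the log2 scale.

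The rises included 6 carboxylesterases, which hydrolyse lipids and ester drugs, with log2 changes between 0.80 (Ces1f) and 1.96 (Ces3b). They were taken from the changed genes, and members of the family that did not pass were not counted. Of all tested genes 1.97% rose, so the 6 are no measure of the family as a whole. Ces3a had 1500 and 1080 CPM in recovery, 354 and 424 CPM under thioacetamide and 2230 and 1550 CPM in control livers (log2 change 1.73, edgeR adjusted p = 0.00475). Reads of this family may be shared between its copies. Regulators of glycogen and glucose use also rose: the glycogen-targeting phosphatase subunit Ppp1r3b had 523 and 378 CPM in recovery, 90.6 and 211 CPM under thioacetamide and 296 and 278 CPM in control livers (log2 change 1.58, adjusted p = 0.022), and the glucokinase regulator Gckr had 158 and 133 CPM in recovery and 34.7 and 64.9 CPM under thioacetamide (log2 change 1.55, adjusted p = 0.0186). Dio1, which activates thyroid hormone, had 21.1 and 21.2 CPM in recovery, 6.42 and 4.99 CPM under thioacetamide and 137 and 45.7 CPM in control livers (log2 change 1.89, adjusted p = 0.0336).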
